A study of Homo sapiens with 12 samples.

Results

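The effect of a p53 knockout was set against the effect of p53 knockdown in LMSU, a human gastric cancer cell line labelled as carrying the p53 mutation R175H. For each gene, the difference was the log2 change of knockout cells from their control minus the log2 change of knockdown cells from theirs, so a positive difference means a higher value after knockout than after knockdown. All 12 RNA-seq libraries of the series entered it, 4 through the knockout effect and 8 through the knockdown effect. The p53 knockout libraries (GFP_sg-1, n = 2) and their control (GFP_V2, n = 2) were GFP-marked and had no doxycycline. The hairpin libraries (p53_shRNA-1 and p53_shRNA-2, n = 2 each) and their controls (scramble_shRNA and vector, n = 2 each) were all labelled with doxycycline, an antibiotic often used to switch on inducible constructs. The labels give the R175H mutation as present in the 3 control groups and absent in the knockout and both hairpin groups. They do not say whether the knockout came from 1 clone, and doxycycline and the way p53 was removed cannot be told apart.

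p53 is a transcription factor that restrains growth and survival of damaged cells through targets such as CDKN1A. The R175H change distorts its DNA-binding domain, and cancer cells often hold large amounts of the altered protein. A knockout cuts the gene, so that frameshifted alleles make no full protein, whereas a short hairpin RNA leads to breakdown of the transcript and leaves some of it. Hairpins can also act on transcripts with partial matches, which is why a pair of hairpins and a scramble control are commonly used.

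The table held 25435 gene symbols, library totals ran from 9738094 to 16823246 counts, and 13365 genes had enough counts to be tested. Levels are TMM-normalised CPM, that is read counts scaled to the size of each library. Called means an adjusted p under 0.05 in edgeR's quasi-likelihood test, with Benjamini-Hochberg adjustment over all 13365 genes. The libraries of the 2 arms lay apart, with 73.9% of the variance on a first component that separated them, and 9053 genes (67.7% of those tested) were called between the knockout control and the knockdown controls. The knockout control pair stood apart in its spread: the variation between the libraries of a pair beyond counting noise had a coefficient of 10.1% for p53 knockout and 19.7% for its control, against 2.14% to 3.72% for the 4 pairs of the knockdown arm. The gastric epithelial genes EPCAM, CDH1 and KRT19 were at or below 0.247 CPM in every library. The epithelial keratins KRT8 and KRT18, in contrast, ran from 63.9 to 208 CPM and from 185 to 283 CPM. The mesenchymal filament gene VIM ran from 6814 to 16390 CPM. CDH5, an endothelial cadherin, was at 0, but in each group 2 of 11 endothelial marker genes exceeded 5 CPM. The summed level of 12 immune marker genes was 188 to 220 CPM in p53 knockout and 231 to 304 CPM in its control, against 381 to 451 CPM with the hairpins and 411 to 444 CPM in their controls, and in each group only 1 of those genes exceeded 5 CPM; its part in the results was not tested. Nothing in the labels says that the libraries of a pair came from separate cultures, so p-values measure spread between libraries, which may be technical. The fit pooled the spread of each gene over all 6 groups, and p-values, SE and intervals rest on that pooled value. The coefficient was 9.6% over all groups, 15.6% for the knockout arm and 3.1% for the knockdown arm. Errors of the knockout effect thus tend to be understated and those of the knockdown effect overstated.

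The effects of knockout and knockdown differed for 201 genes, 1.5% of those tested. The knockout effect lay above the knockdown effect for 139 of them (1.04% of tested genes) and below it for 62 (0.464%). An unadjusted p below 0.05 was reached by 1858 genes. The knockout effect alone was called for 2 genes (0.015%; 859 at an unadjusted p below 0.05), one of them DCN. The knockdown effect alone was called for 1582 genes (11.8%), of which 701 were higher (5.25%) and 881 lower (6.59%).

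Most called differences came with a knockdown effect of the opposite direction. In all, 193 of the 201 genes were also called for knockdown: 135 of the 139 positive differences were genes lower after knockdown, and 58 of the 62 negative ones were genes higher after knockdown. The median size of the effect among the 201 was 0.15 log2 units after knockout and 0.58 after knockdown. The 2 effects had opposite signs in 157 genes and the same sign in 44. Opposite directions are partly built into this choice of genes, since the difference subtracts the knockdown effect. Over all tested genes the SD was 0.31 for the knockout effect and 0.314 for the knockdown effect. The SD includes noise between libraries, which was larger in the knockout arm (coefficient 15.6%, against 3.1%). Like SDs thus do not show effects of like size. Across all tested genes the knockout and knockdown effects had a Pearson r of 0.08 and a Spearman rho of 0.12. This is a description across genes, which are not independent replicates. The part of the noise between libraries in r and rho was not tested.

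**Figure D1:**
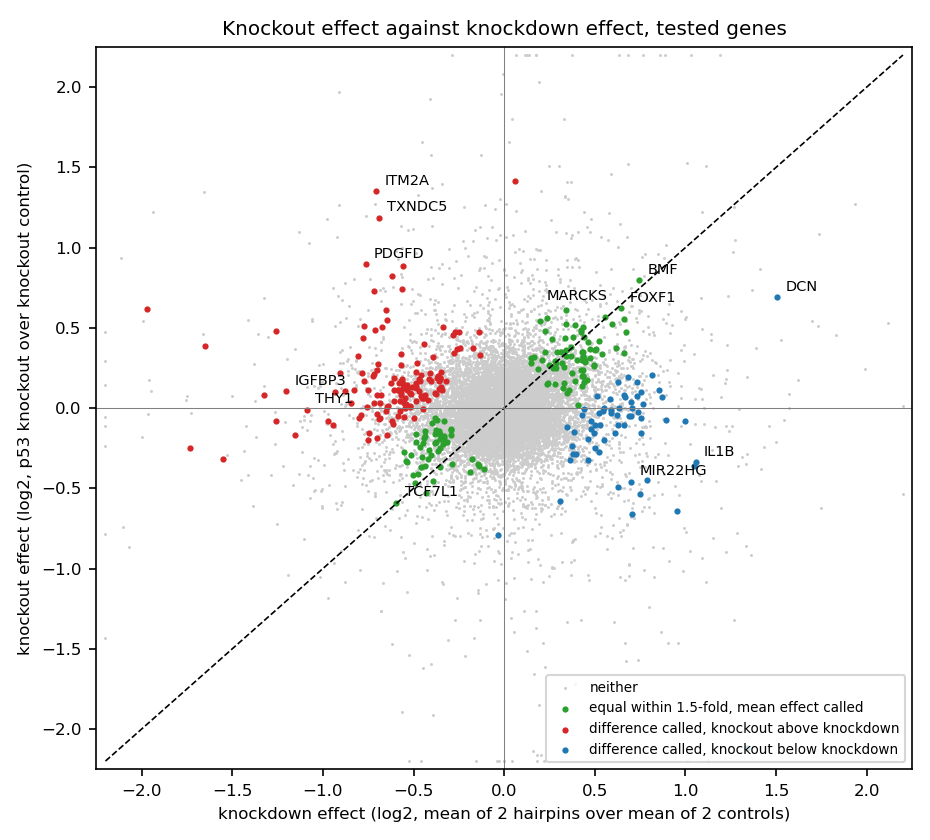
Knockout effect (vertical axis, log2) against knockdown effect (horizontal axis, log2) for the tested genes, with values beyond the axes drawn at the edge and the dashed line marking equal effects. Red and blue points are genes with a called difference, which mostly spread along the horizontal axis, and green points are the genes with equal effects, which lie along the dashed line.

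Only 21 of the 201 genes had the larger effect after knockout, 18 of them with a positive difference and 3 with a negative one. Among the 18 were ITM2A, TXNDC5, PDGFD, CELF2, IL13RA2, PCDH18, GALNT3, THBS1 and COL5A2, and the 3 were RGAG4, C22orf34 and LOC400644. SDC2, a membrane heparan sulfate proteoglycan (difference 0.73 log2), and IL15, a lymphocyte growth factor (0.74), were also among the 18. These and the names C22orf34 and LOC400644 were chosen after their values were seen. The other 180 had the larger effect after knockdown.

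ITM2A had the highest difference among genes that reached 5 CPM in any group and kept their sign in each check. ITM2A encodes a type II membrane protein with a BRICHOS domain, a fold that helps keep other proteins from aggregating. ITM2A had 2.30 and 2.23 CPM in the p53 knockout libraries, against 0.835 and 0.936 CPM in the knockout controls. With the hairpins ITM2A had 6.02 and 5.57 CPM (shRNA 1) and 2.95 and 2.62 CPM (shRNA 2), against 6.71 and 5.99 CPM with scramble and 6.33 and 7.17 CPM with vector. Both knockout libraries thus lay above both of their controls, the shRNA 2 libraries lay below all 4 knockdown controls, and the shRNA 1 libraries overlapped with scramble.

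The knockout effect on ITM2A was 1.35 log2 (adjusted p = 0.14) and the knockdown effect -0.70 (adjusted p = 0.0027). Their difference was 2.06 (SE 0.29, 95% interval 1.42 to 2.70, adjusted p = 0.007), or 4.17-fold. The level was low: ITM2A had 31 and 33 reads in the knockout libraries, against 12 and 11 reads in their controls. ITM2A was called in each of the 12 fits that left out 1 library and with each hairpin against each control, where the difference ran from 1.48 to 2.64. It was not called by voom with quality weights in each arm, a test on log2 values that lets the arms differ in spread (adjusted p = 0.25). Its relatives ITM2B and ITM2C did not pass the test, with differences of 0.12 (adjusted p = 0.61) and 0.23 (adjusted p = 0.65), and the other 5 BRICHOS-family genes had too few counts to be tested.

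MARCKS, an actin- and lipid-binding substrate of protein kinase C, had positive effects in both arms and no called difference. MARCKS had 686 and 712 CPM in the p53 knockout libraries, against 411 and 490 CPM in the knockout controls. The hairpin libraries had 1035 and 1034 CPM (shRNA 1) and 907 and 947 CPM (shRNA 2), against 746 and 737 CPM with scramble and 1038 and 958 CPM with vector. Knockout libraries lay above their controls and all hairpin libraries lay above scramble, but none lay above the higher vector library.

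The knockout effect on MARCKS was 0.64 log2 (adjusted p = 0.068) and the knockdown effect 0.19 (adjusted p = 0.084), and the mean of both effects was 0.41 (adjusted p = 0.0036). The difference of 0.45 (SE 0.11, 95% interval 0.21 to 0.69) missed the threshold with an adjusted p of 0.078, and its interval reached past the 1.5-fold limit of 0.585 used for equal effects. MARCKS therefore counts neither among the called nor among the equal genes. Against scramble the difference was 0.16 with shRNA 1 and 0.31 with shRNA 2, neither of them called. Against vector it was called for both hairpins, at 0.58 for shRNA 1 (adjusted p = 0.035) and at 0.74 for shRNA 2 (adjusted p = 0.004). None of the 19 tested genes of a list of MARCKS relatives, protein kinase C isoforms and membrane-actin linkers had a called difference. Over all tested genes 1.5% had a called difference, so a list of this size can hold none at that share. The list had a median of -0.10, against -0.007 over all genes, and a median of 0.03 without knockout control 2.

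Over the 12 libraries the levels most like those of ITM2A were SMARCA1 (Pearson r of log2 CPM 0.97), YBX3 (0.96) and SH3KBP1 (0.96), and those most like MARCKS were PDGFC (0.97), SYNC (0.97) and RHOBTB3 (0.95). All 12 points share the split between the arms, so these values are a description with no test.

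**Figure D2:**
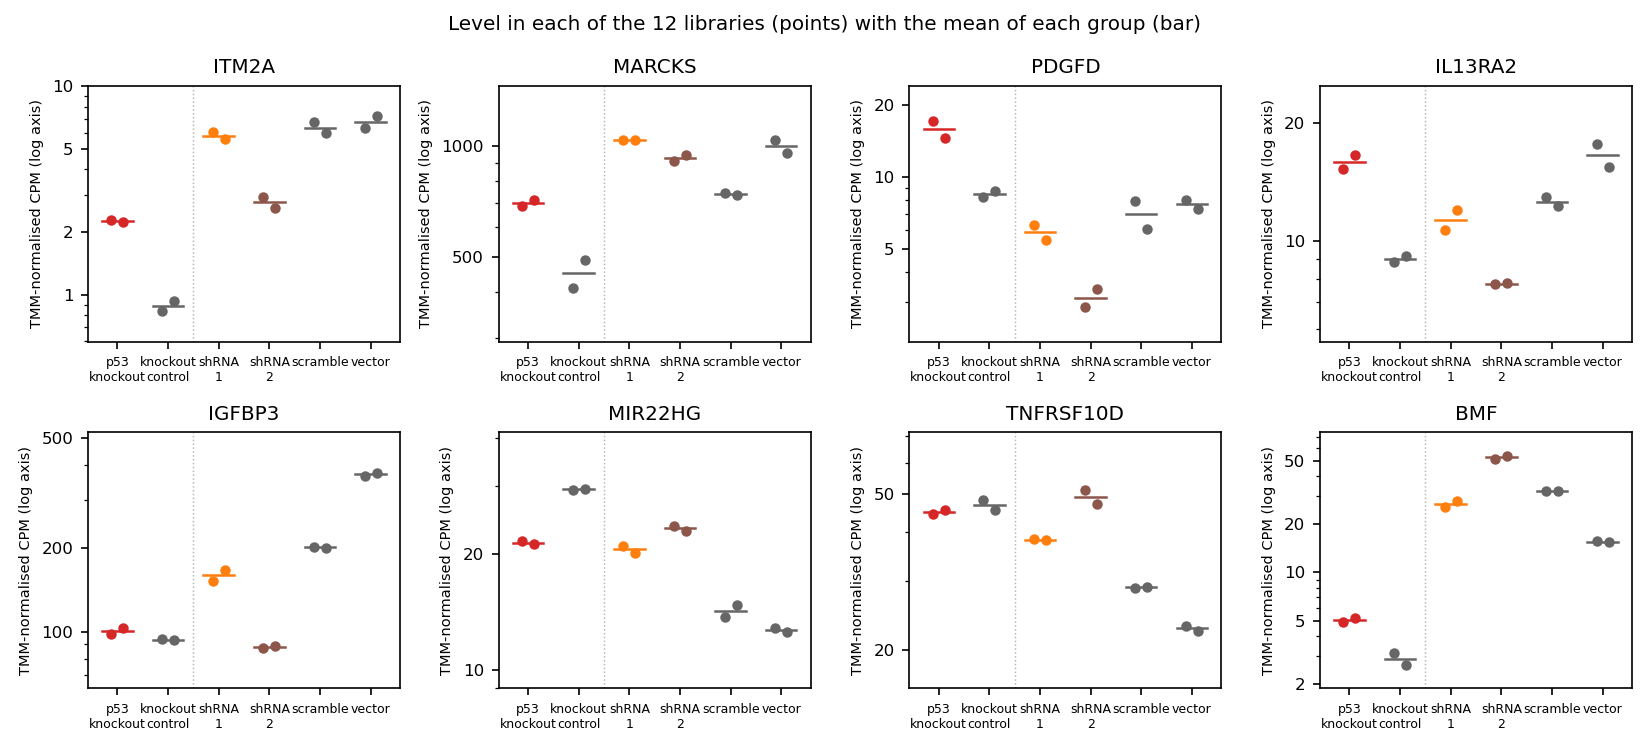
Level of 8 genes (TMM-normalised CPM, log axis) in each of the 12 libraries, with points for libraries and bars for group means, the knockout arm left of the dotted line. ITM2A, PDGFD and IL13RA2 were higher in p53 knockout than in its control and lower with shRNA 2 than with scramble or vector, whereas BMF was higher in p53 knockout than in its control and higher with shRNA 2 than with either knockdown control.

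Among the 12 highest differences named, PDGFD and IGFBP3 encode secreted factors, and IL13RA2 and GFRA1 encode receptors. PDGFD, a ligand of the PDGF beta receptor, had 17.1 and 14.5 CPM in p53 knockout, against 8.21 and 8.77 CPM in the knockout control. It had 6.29 and 5.46 CPM with shRNA 1 and 2.86 and 3.39 CPM with shRNA 2, against 7.92 and 6.06 CPM with scramble and 7.99 and 7.36 CPM with vector. Both knockout libraries lay above their controls and the shRNA 2 libraries below all knockdown controls, while shRNA 1 overlapped with scramble. The difference was 1.66 (SE 0.21, adjusted p = 0.007), while the knockout effect of 0.90 did not pass the test (adjusted p = 0.11). PDGFD was called in each fit that left out a library.

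IL13RA2, a decoy receptor for interleukin 13, had 15.3 and 16.6 CPM in p53 knockout, against 8.84 and 9.19 CPM in the knockout control. It had 10.7 and 11.99 CPM with shRNA 1 and 7.77 and 7.85 CPM with shRNA 2, against 12.9 and 12.3 CPM with scramble and 17.7 and 15.4 CPM with vector. Every knockout library was above its controls and every hairpin library below its controls, and the difference was 1.44 (SE 0.16, adjusted p = 0.0034). CELF2, an RNA-binding regulator of splicing, also had knockout libraries above and hairpin libraries below their controls. It had 12.5 and 12.8 CPM in p53 knockout, against 5.50 and 8.34 CPM in the knockout control, and its hairpin libraries lay at 15.8 to 20.1 CPM, against 24.8 to 29.0 CPM in the knockdown controls. The difference of CELF2 was 1.45 (SE 0.20, adjusted p = 0.0083). The knockout effect alone did not pass the test for IL13RA2 (0.82, adjusted p = 0.068) or CELF2 (0.89, adjusted p = 0.17).

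IGFBP3, which binds insulin-like growth factors in the extracellular space, was of another kind, since its difference came almost wholly from the knockdown side. It had 98.1 and 104 CPM in p53 knockout, against 94.2 and 93.2 CPM in the knockout control, a knockout effect of 0.11 (adjusted p = 0.79). It had 153 and 167 CPM with shRNA 1 and 87.5 and 88.8 CPM with shRNA 2, against 203 and 201 CPM with scramble and 365 and 375 CPM with vector. All 4 hairpin libraries lay below all 4 controls, but the vector libraries lay well above the scramble libraries. The difference was 1.31 (SE 0.10, adjusted p = 3e-04) against both controls, 0.88 against scramble alone and 1.75 against vector alone.

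The other 7 genes named among the 12 highest differences had values between 1.24 and 1.88. TXNDC5, an endoplasmic reticulum protein disulfide isomerase, had a difference of 1.88 (SE 0.39, adjusted p = 0.043). Its libraries spread widely within pairs, with 12.4 and 20.9 CPM in shRNA 2, and reads of an overlapping readthrough gene may be split between both. RGS4, a brake on G-protein signalling, had a difference of 1.41 (SE 0.24), with a mean of 5.42 CPM in p53 knockout against 5.13 CPM in its control. GFRA1, a co-receptor for GDNF, had 1.28 (SE 0.18), and the cell adhesion gene PCDH18 had 1.35 (SE 0.25). PCDH18 averaged 5.97 ± 1.8 CPM in p53 knockout and 2.24 ± 0.32 CPM in its control (SD, n = 2 each). That knockout effect of 1.41 did not pass the test (adjusted p = 0.068). The knockdown effect was 0.06 (adjusted p = 0.76), with far higher group means in the knockdown arm, from 27.7 to 35.9 CPM. GALNT3, which starts mucin-type O-glycosylation, had 1.30, TOX, a nuclear HMG-box protein, had 1.26, and MYO1D, a class I myosin, had 1.24.

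The genes CARD14, MMP1, MMP3 and BMPER had the lowest differences under the naming rule. CARD14, a scaffold for NF-kB activation, had the lowest, -1.59 (SE 0.34, adjusted p = 0.046), from levels of 1.10 CPM in p53 knockout and 1.70 CPM in its control, and it was called in 1 of the 12 fits without a library. MMP1, the interstitial collagenase, had 6.08 and 6.16 CPM in p53 knockout, against 8.21 and 7.49 CPM in the knockout control. It had 9.17 and 7.93 CPM with shRNA 1 and 15.7 and 15.3 CPM with shRNA 2, against 8.33 and 9.81 CPM with scramble and 3.17 and 3.65 CPM with vector. The shRNA 1 libraries overlapped with scramble and lay above vector. The difference of MMP1 was -1.41 (SE 0.19, adjusted p = 0.007), with -0.71 against scramble alone and -2.11 against vector alone.

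MMP3, the matrix metalloprotease stromelysin, averaged 23.4 ± 1.9 CPM in p53 knockout and 36.9 ± 3.8 CPM in its control (SD, n = 2 each), and at most 2.37 CPM in any knockdown-arm library. Its knockdown effect did not pass the test (0.70, adjusted p = 0.067), and its difference was -1.36 (SE 0.26, adjusted p = 0.032). BMPER, a secreted protein that binds bone morphogenetic proteins, had -1.29 (SE 0.20, adjusted p = 0.011).

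MIR22HG, the host transcript of a microRNA, had a called negative difference against each hairpin and each control. It had 21.6 and 21.2 CPM in p53 knockout, against 29.3 and 29.4 CPM in the knockout control. It had 20.9 and 20.1 CPM with shRNA 1 and 23.7 and 22.9 CPM with shRNA 2, against 13.8 and 14.8 CPM with scramble and 12.8 and 12.6 CPM with vector. All knockout libraries were below their controls and all hairpin libraries above theirs, though the knockout effect of -0.46 did not pass the test (adjusted p = 0.24). The difference was -1.16 (SE 0.12, adjusted p = 0.0025), and it ran from -0.98 to -1.33 over the 4 pairings of a hairpin with a control. The microRNA itself was not measured.

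TNFRSF10D, a decoy receptor for the death ligand TRAIL, had 44.4 and 45.4 CPM in p53 knockout, against 48.2 and 45.5 CPM in the knockout control. Its hairpin libraries lay at 38.1 to 51.1 CPM, against 22.4 to 29.0 CPM in the knockdown controls. The knockout groups lay side by side, the knockdown groups did not overlap, and the difference was -0.82 (SE 0.11, adjusted p = 0.007). NOTCH1, the cell-surface receptor, had means of 26.1 CPM in p53 knockout and 27.5 CPM in its control and a difference of -0.96 (SE 0.14, adjusted p = 0.009). The NOTCH1 mean was 112 CPM with shRNA 1 and 210 CPM with shRNA 2, against 99.7 CPM with scramble and 68.5 CPM with vector.

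Of the rest, the amino acid transporter SLC43A2 had a difference of -1.08 and the anion transporter SLC26A11 -0.76. The retrotransposon-derived RGAG4 had -0.89, the histone gene HIST1H2AC -0.80 and the membrane protein gene TLCD2 -0.76. HIST1H2AC has near-identical copies, so its counts are uncertain.

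**Figure D3:**
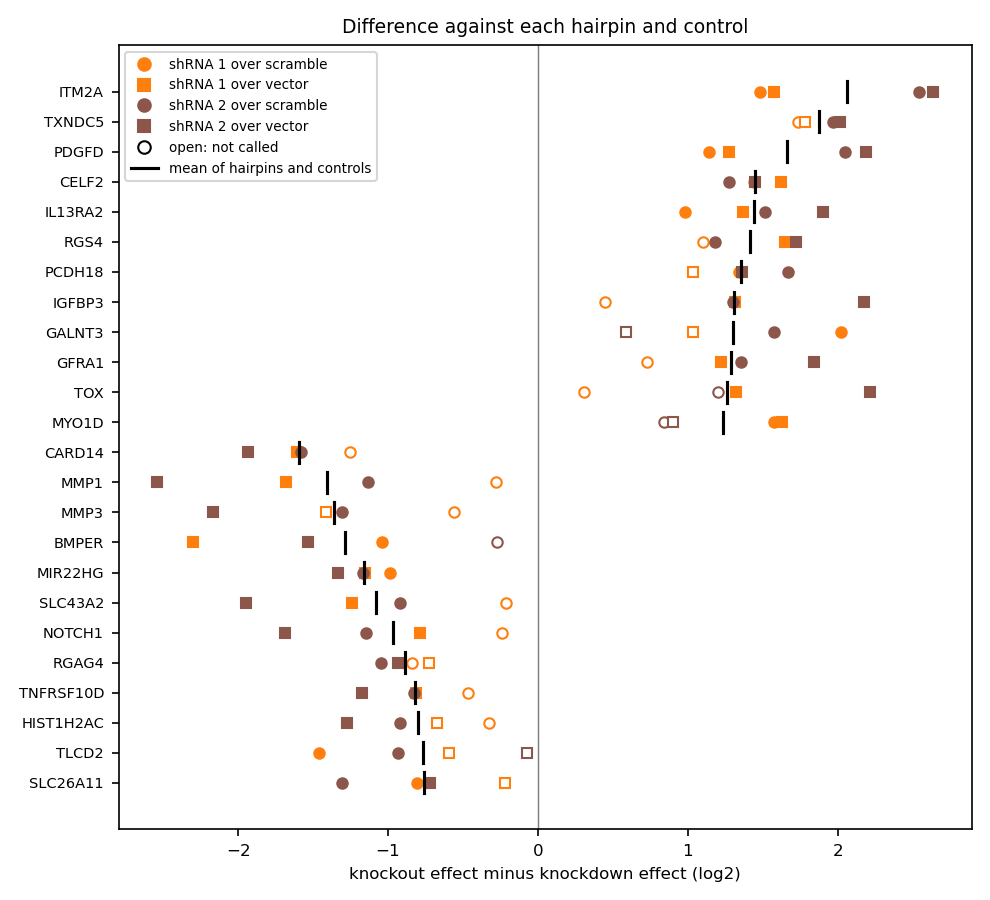
Difference (log2, horizontal axis) of the 24 named genes against each hairpin and each knockdown control, with filled symbols for called values and the bar for the mean of both hairpins and both controls. ITM2A, PDGFD, CELF2, IL13RA2 and MIR22HG have 4 filled symbols, and for several other genes the shRNA 1 values against scramble lie nearest to 0.

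The choice of hairpin and control bore on how many genes were called. With 1 hairpin and 1 control at a time, 388 genes were called for shRNA 1 against scramble, 370 for shRNA 1 against vector, 404 for shRNA 2 against scramble and 1215 for shRNA 2 against vector. The knockdown controls differed from each other in 2039 genes (15.3%) and the hairpins in 1909 (14.3%). Of the 201 genes, 158 kept the sign of their difference in all 4 pairings. With scramble alone as control 147 genes were called and with vector alone 715, and of the genes called in both, 45 had the same sign and 12 opposite signs.

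Called in all 4 pairings with 1 sign were 15 genes (0.112% of those tested), 11 with a positive and 4 with a negative difference. The pairings share the 4 knockout-arm libraries, and each hairpin and control enters 2 of them, so they are not independent checks. Besides ITM2A, PDGFD, CELF2, IL13RA2 and MIR22HG they included CPM, NOV, ELMO1, SIAH2, GPR176, HSP90B1, KLF10, TXNIP and C14orf132, genes that were named after their values were seen unless a list below holds them. The gene CPM encodes carboxypeptidase M, a membrane enzyme that trims basic residues from peptides. Carboxypeptidase M transcripts had normalised levels of 27.5 and 24.6 CPM in p53 knockout, against 17.3 and 18.4 CPM in the knockout control. With the hairpins they lay at 39.1 to 43.6 CPM, against 60.2 to 68.4 CPM in the knockdown controls, and the difference was 1.19 (SE 0.12, adjusted p = 0.0024). Neither arm had overlapping groups, though the knockout effect of 0.55 did not pass the test (adjusted p = 0.12).

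TXNIP, which binds thioredoxin and limits glucose uptake, had 110 and 116 CPM in p53 knockout, against 108 and 100 CPM in the knockout control. Its hairpin libraries lay at 944 to 1268 CPM, against 570 to 654 CPM in the knockdown controls. The knockdown groups did not overlap, and the difference was -0.74 (SE 0.09, adjusted p = 0.007) on a knockdown effect of 0.86. TXNIP also shows the gap between arms, with every knockdown-arm library above every knockout-arm library. SIAH2, an E3 ubiquitin ligase, had a difference of 0.63 and GPR176, an orphan G-protein-coupled receptor, 0.62. ELMO1, a partner of DOCK proteins in Rac activation, had 1.13, and NOV, a matricellular CCN protein, had 1.197.

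**Figure D4:**
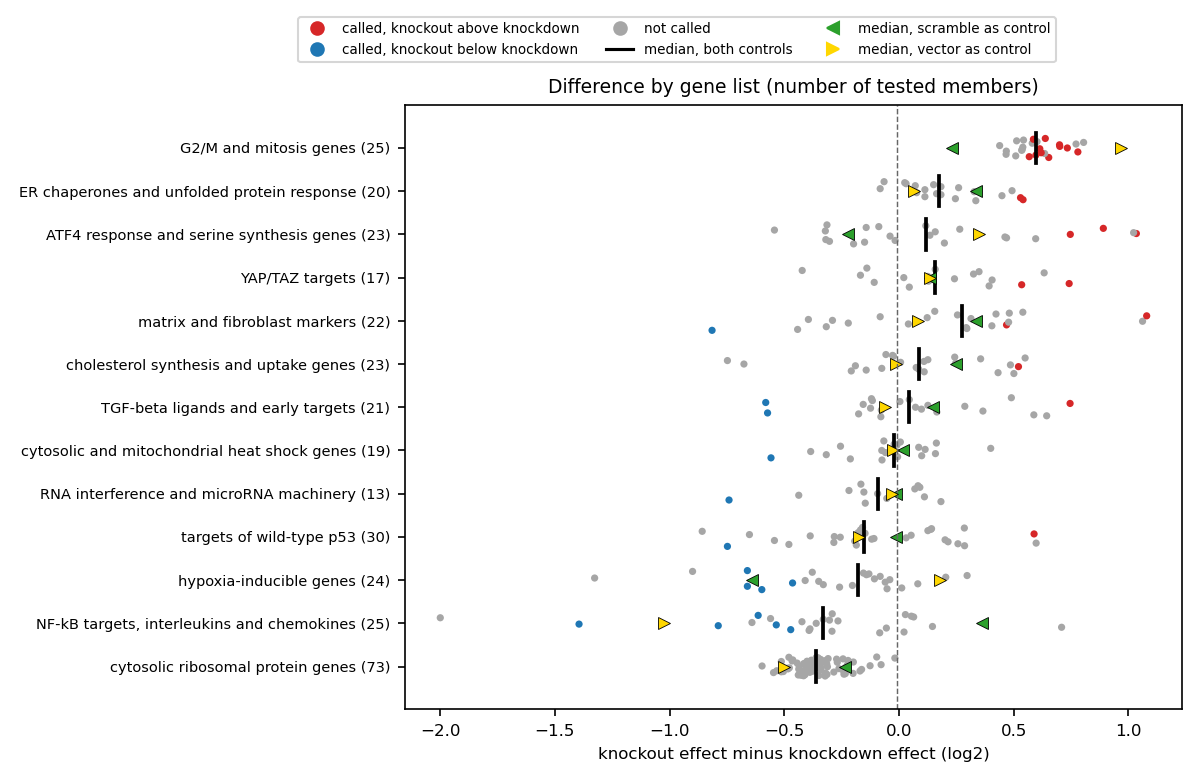
Difference (log2, horizontal axis) of each tested member of 13 gene lists, with red and blue points for called members, a bar for the list median and triangles for the median with scramble or vector alone as control. All G2/M genes lie to the right of 0 and all ribosomal protein genes to the left, and the NF-kB and hypoxia medians lie on opposite sides of 0 with scramble and with vector.

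Genes of the G2 phase and mitosis lay on the side of a higher knockout than knockdown effect. Of 25 tested genes 11 had a called positive difference and none a negative one, which is 44% of the list against 1.04% of all genes. All 25 differences were positive, from 0.44 for KIF2C, a microtubule depolymerase, to 0.81 for CENPA, the centromeric histone, neither of them called. The median was 0.60, against -0.007 over all genes. It was made up of a median knockout effect of 0.09, with no member called, and a median knockdown effect of -0.52, with 22 members called lower, against 6.59% of all tested genes. In a bulk sample, fewer cells in mitosis and less RNA per cell cannot be told apart.

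AURKA, a kinase of the spindle poles, had 114 and 118 CPM in p53 knockout, against 116 and 103 CPM in the knockout control. It had 27.5 and 26.7 CPM with shRNA 1 and 32.2 and 27.7 CPM with shRNA 2, against 34.0 and 37.2 CPM with scramble and 58.0 and 62.2 CPM with vector. The knockout groups overlapped, the hairpin libraries lay below both controls, and the difference was 0.78 (SE 0.12, adjusted p = 0.014). The spindle and cytokinesis genes KIF20A (0.70), NUSAP1 (0.64) and TPX2 (0.59) were also called. The size of the list's difference moved with hairpin and control. Its median was 0.05 for shRNA 1 against scramble, with 18 of 25 differences positive and no member called, 0.40 for shRNA 2 against scramble, 0.81 for shRNA 1 against vector and 1.12 for shRNA 2 against vector. Over the 12 fits without 1 library the list median ran from 0.58 to 0.65.

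Promoters of such genes are known for a CCAAT box, bound by NF-Y, and a cell cycle homology region, bound by the DREAM and MuvB complexes, both tied to repression by wild-type p53. The 250 bases before the transcription start of 3 of the called genes are printed because they hold both motifs. They come from RefSeq on build GRCh38.p14, while the counts were made on hg19. Capitals mark TTTGAA, the letters searched for the cell cycle homology region, and CCAAT, each on either strand (TTCAAA and ATTGG on the other strand). The 3 genes were chosen after their differences were seen.
KIF23, a kinesin of the cytokinetic midbody, chr15:69414099-69414348, plus strand: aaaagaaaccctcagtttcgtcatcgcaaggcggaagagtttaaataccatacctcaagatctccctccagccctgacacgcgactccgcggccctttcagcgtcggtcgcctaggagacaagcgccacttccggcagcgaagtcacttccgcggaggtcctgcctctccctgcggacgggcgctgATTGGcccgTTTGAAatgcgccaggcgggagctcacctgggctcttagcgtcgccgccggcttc
CDK1, the kinase that drives entry into mitosis, chr10:60778081-60778330, plus strand: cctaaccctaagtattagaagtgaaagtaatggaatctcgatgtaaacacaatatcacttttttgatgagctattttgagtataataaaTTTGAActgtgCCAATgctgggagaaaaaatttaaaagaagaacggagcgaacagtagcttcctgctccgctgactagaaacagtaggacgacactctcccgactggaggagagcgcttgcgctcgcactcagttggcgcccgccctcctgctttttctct
PLK1, a kinase of mitotic progression, chr16:23678639-23678888, plus strand: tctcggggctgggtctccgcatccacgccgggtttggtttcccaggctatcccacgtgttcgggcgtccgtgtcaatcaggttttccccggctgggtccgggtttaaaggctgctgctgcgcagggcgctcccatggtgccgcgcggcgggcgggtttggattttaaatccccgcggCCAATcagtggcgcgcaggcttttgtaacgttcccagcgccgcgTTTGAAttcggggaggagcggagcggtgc

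Differences for these 3 genes were 0.70 for KIF23, 0.60 for CDK1 and 0.62 for PLK1, with adjusted p values of 0.026, 0.035 and 0.037. KIF23 had 156 and 141 CPM in p53 knockout, against 129 and 146 CPM in the knockout control. It had 64.6 and 62.3 CPM with shRNA 1 and 38.0 and 34.9 CPM with shRNA 2, against 53.1 and 62.6 CPM with scramble and 90.35 and 90.04 CPM with vector. The shRNA 1 libraries overlapped with scramble and only shRNA 2 lay below both controls. Of the 25 list genes, 20 had a promoter in the RefSeq table. TTTGAA was in 9 of them (45%), against 8.36% of the 9800 tested genes with a promoter, and CCAAT in 16 (80%), against 35.1%. Both were in 8 (40%), against 3.38%. Those 8 included CENPA, CCNB2, TOP2A, KIF11 and CDC20, which had no called difference. The called genes NUSAP1, KIF20A, CCNA2, MAD2L1 and CCNB1 lacked TTTGAA on either strand. These shares describe letters in a window and say nothing of binding in these cells.

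Cytosolic ribosomal protein genes had differences on the other side of 0, none large enough for the test. None of the 73 tested members had a called difference, against 1.5% of all tested genes. All 73 differences were negative, with a median of -0.36, whereas 6515 of all 13365 tested genes had a positive difference. The median knockout effect was -0.14 and the median knockdown effect 0.22, with 8 of the 73 members called higher after knockdown, against 5.25% of all tested genes. RPL4, of the large subunit, had 1200 and 1341 CPM in p53 knockout, against 1569 and 1236 CPM in the knockout control. The knockout control libraries lay on both sides of the knockout libraries, and the difference was -0.42 (SE 0.13, adjusted p = 0.15). Its median was -0.006 without knockout control 1 and -0.64 without knockout control 2, so the size of the difference rested on which of those libraries was used. Ribosomal protein genes have many processed pseudogenes, and their counts are uncertain for that reason.

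NF-kB targets, interleukins and chemokines held 5 called negative differences of 25 tested members, against 0.464% of all tested genes, and no positive one. The median was -0.33. IL1B, an inflammatory interleukin, had 115 and 131 CPM in p53 knockout, against 171 and 139 CPM in the knockout control. It had 91.6 and 88.8 CPM with shRNA 1 and 247 and 251 CPM with shRNA 2, against 195 and 184 CPM with scramble and 29.3 and 25.4 CPM with vector. The shRNA 1 libraries lay below scramble and above vector, and the shRNA 2 libraries above both. The difference of IL1B was -1.39 (SE 0.14, adjusted p = 0.0024) against both controls, 0.003 against scramble alone and -2.79 against vector alone.

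SOD2, the mitochondrial superoxide dismutase, had -0.79, the interleukin IL1A had -0.53 and TNFAIP3, a feedback inhibitor of NF-kB, had -0.47. With scramble alone the differences were 0.09 for SOD2, 0.94 for IL1A and 0.08 for TNFAIP3. The other called member was IL11 (-0.61), a cytokine of the interleukin 6 family, named because it completes the count. The median of this list was 0.36 with scramble alone and -1.02 with vector alone, so its direction depended on the control.

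Hypoxia-inducible genes held 4 called negative differences of 24 tested members, against 0.464% of all tested genes, and no positive one. The 4 were VEGFA (-0.60), BNIP3L (-0.66), AK4 (-0.66) and P4HA1 (-0.46). VEGFA, the growth factor for blood vessels, had 309 and 318 CPM in p53 knockout, against 298 and 299 CPM in the knockout control. Its means were 479 CPM with shRNA 1 and 694 CPM with shRNA 2, against 480 CPM with scramble and 275 CPM with vector. The shRNA 1 mean thus lay beside scramble. P4HA1, a collagen prolyl hydroxylase, had means of 622 and 633 CPM with shRNA 1 and shRNA 2, against 210 CPM with scramble and 786 CPM with vector. Its difference was -1.41 against scramble alone and 0.49 against vector alone. The list median was -0.18 over both controls, -0.64 with scramble alone, 0.18 with vector alone and -0.32 without knockout control 2.

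The lists of endoplasmic reticulum chaperones and of the ATF4 response held only positive calls, which 1.04% of all tested genes had. Of 20 endoplasmic reticulum chaperone and unfolded protein response genes, 2 were called, the chaperone HSP90B1 (0.54) and the disulfide isomerase PDIA4 (0.53), and 18 of 20 differences were positive with a median of 0.17. HSP90B1 had 1797 and 1802 CPM in p53 knockout, against 1582 and 1584 CPM in the knockout control. Its hairpin libraries lay at 1509 to 1576 CPM, against 1937 to 2001 CPM in the knockdown controls. No groups of HSP90B1 overlapped within an arm, and its difference ran only from 0.51 to 0.58 over the 4 pairings. Its knockout effect of 0.185 did not pass the test (adjusted p = 0.72).

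Of 23 genes of the ATF4 response and serine synthesis, 3 were called positive, against 1.04% of all tested genes: ALDH1L2 (1.03) and MTHFD2 (0.75), mitochondrial folate enzymes, and STC2, a secreted glycoprotein (0.89). MTHFD2 averaged 143 ± 4.8 CPM in p53 knockout and 140 ± 4.8 CPM in its control (SD, n = 2 each). The MTHFD2 means were 125 CPM with shRNA 1 and 90.3 CPM with shRNA 2, against 146 CPM with scramble and 209 CPM with vector. The median was 0.12, and it was -0.22 with scramble alone and 0.35 with vector alone. It was -0.06 without knockout control 2 and 0.26 without knockout control 1.

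Matrix and fibroblast genes held a gene called after knockout as well as after knockdown. DCN, a small proteoglycan that coats collagen, had 51.8 and 55.8 CPM in p53 knockout, against 34.9 and 31.8 CPM in the knockout control. It had 286 and 281 CPM with shRNA 1 and 538 and 559 CPM with shRNA 2, against 305 and 295 CPM with scramble and 66.3 and 62.5 CPM with vector. DCN rose after knockout by 0.69 (adjusted p = 0.038) and after knockdown by 1.504 (adjusted p = 1.2e-07), and the difference was -0.81 (SE 0.10, adjusted p = 0.007). With scramble alone as control the difference was 0.30. The scramble mean of 300 CPM lay far above the vector mean of 64.4 CPM, so the sign depended on the control.

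THY1, a surface glycoprotein of fibroblasts, had a difference of 1.08 and the collagen gene COL5A2 one of 0.47, so that 2 of the 22 tested members were called positive and 1 negative, against 1.04% and 0.464% of all tested genes. The list median was 0.27, with a median knockout effect of 0.35 and knockdown effect of 0.04. Equal effects, as defined further on, were found for 4 of the 22, against 0.965% of all tested genes. They were the collagen gene COL3A1, the PDGF receptors PDGFRA and PDGFRB and the protease FAP. The summed level of the list was 9170 to 9349 CPM in p53 knockout and 7800 to 8012 CPM in its control, against 43040 to 60310 CPM in the knockdown arm. The part of that gap between arms in the differences was not tested.

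Targets of YAP, targets of TGF-beta and cholesterol genes each held 1 to 3 calls, against 1.04% of all tested genes called positive and 0.464% negative. Targets of YAP and TAZ held 2 positive calls of 17, the matricellular genes CYR61 (0.74) and CTGF (0.53). CYR61 had 1374 and 1491 CPM in p53 knockout, against 1607 and 1383 CPM in its control, and means of 670 and 806 CPM with shRNA 1 and shRNA 2, against 1056 CPM with scramble and 1556 CPM with vector. The TGF-beta list held 1 positive call of 21, THBS1 (0.75), a matrix glycoprotein, and 2 negative ones, the transcription factor KLF10 (-0.58) and the receptor TGFBR2 (-0.57). In cholesterol synthesis and uptake 1 of 23 genes was called, SQLE (0.52), which makes squalene epoxide. The median was 0.16 for the YAP list, 0.05 for the TGF-beta list and 0.09 for the cholesterol list. Leaving out 1 library moved each of them: the YAP median was -0.06 without knockout control 1 and 0.39 without knockout control 2, the TGF-beta median 0.02 without p53 knockout 2 and 0.10 without p53 knockout 1, and the cholesterol median 0.05 without the second shRNA 1 library and 0.22 without knockout control 1.

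Among 30 tested targets of wild-type p53, PLK2, a polo-like kinase, had a positive call (0.59, adjusted p = 0.0092) and CDKN1A, the cyclin-dependent kinase inhibitor p21, a negative one (-0.75, SE 0.14, adjusted p = 0.034). CDKN1A averaged 41.8 ± 6.2 CPM in p53 knockout and 47.9 ± 6.3 CPM in its control (SD, n = 2 each). The CDKN1A means were 87.0 CPM with shRNA 1 and 200 CPM with shRNA 2, against 117 CPM with scramble and 69.2 CPM with vector. Its difference was 0.23 for shRNA 1 against scramble, not called, and -1.73 for shRNA 2 against vector. The list median was -0.15, with -0.01 without knockout control 1 and -0.20 without knockout control 2. Over all tested genes 1.04% were called positive and 0.464% negative.

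The RNA interference and microRNA machinery, parts of which hairpins use, held 1 negative call of 13, against 0.464% of all tested genes. It was DGCR8 (-0.74, SE 0.15, adjusted p = 0.035), a subunit of the nuclear microRNA processor. DGCR8 averaged 47.9 ± 0.91 CPM in p53 knockout and 49.5 ± 6.6 CPM in its control (SD, n = 2 each). In the knockdown arm the DGCR8 means were 21.1 CPM with shRNA 1 and 22.2 CPM with shRNA 2, against 14.5 CPM with scramble and 12.3 CPM with vector. All 4 hairpin libraries lay above all 4 knockdown controls. The nuclease DROSHA and the slicer AGO2 had differences of 0.18 and -0.44, neither called. Of 19 heat shock genes, HSPA8, a constitutive cytosolic chaperone, was called (-0.56), with -0.09 against scramble alone.

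The remaining lists had few calls or none, against 1.5% of all tested genes called in either direction. No member was called among 18 glycolysis, 26 interferon, 28 G1/S, 26 mitochondrial translation, 23 integrin and adhesion and 15 epithelial or mesenchymal genes, with medians from -0.09 to 0.04. The glycolysis median was -0.47 with scramble alone and 0.24 with vector alone, and that of the G1/S genes was -0.32 and 0.26. All 6 medians turned sign or moved by over 1.5 times when 1 library was left out, and over those fits they lay between -0.29 and 0.18. Of 22 immediate early genes 1 was called, ETV4 (-0.69), a transcription factor. Immune and gastric marker lists had 1 tested gene each, not called. Of 3 tested endothelial marker genes 1 was called, TIE1 (0.63), a receptor tyrosine kinase.

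Genes with equal effects were sought by the interval of the difference, since a difference that misses the threshold does not show that effects are alike. A gene counted as equal when the mean of both effects was called, both effects had the same sign and the 95% interval of the difference lay within 1.5-fold in both directions. This held for 129 genes (0.965% of those tested), 76 higher and 53 lower after p53 removal. Their effects had a median size of 0.30 log2 after knockout and 0.39 after knockdown, less than the limit of 0.585. A gene with little knockout effect can therefore count as equal. The interval rests on the pooled spread and may be too narrow for genes that varied widely within the knockout-arm pairs. Called for knockdown alone were 117 of the 129. The mean effect was called for 370 genes, of which 86 had a called difference and 155 had neither a called difference nor a narrow interval. The interval lay within 1.5-fold for 6020 genes, 45.0% of all, and the median interval reached 0.41 log2 units to either side.

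BMF, a pro-apoptotic BH3-only protein, had the largest equal effect upward. BMF had 4.90 and 5.21 CPM in p53 knockout, against 3.13 and 2.64 CPM in the knockout control. It had 25.5 and 28.1 CPM with shRNA 1 and 51.2 and 53.6 CPM with shRNA 2, against 32.1 and 32.1 CPM with scramble and 15.6 and 15.5 CPM with vector. The knockout effect was 0.80 and the knockdown effect 0.74, with a difference of 0.05 (95% interval -0.33 to 0.43). This equality held for the mean of hairpins and controls and not for each pairing. The difference was 1.062 for shRNA 1 against scramble (adjusted p = 0.012) and -0.95 for shRNA 2 against vector (adjusted p = 0.0088).

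EDIL3, an integrin-binding matrix protein, was steadier over the pairings. It had 16.9 and 14.1 CPM in p53 knockout, against 8.28 and 13.0 CPM in the knockout control. Its means were 375 and 313 CPM with shRNA 1 and shRNA 2, against 212 CPM with scramble and 220 CPM with vector, a far higher level in the knockdown arm. The difference was -0.11 (95% interval -0.56 to 0.34) and ran from -0.26 to 0.05 over the 4 pairings. That interval rests on the pooled spread, although the knockout control libraries of EDIL3 lay far apart, at 8.28 and 13.0 CPM. FOXF1, a forkhead transcription factor of mesenchyme, had a knockout effect of 0.62 and a knockdown effect of 0.65. The FOXF1 difference varied widely over the 4 pairings, from -0.57 to 0.52, though it was called in none. The knockout and knockdown effects were 0.57 and 0.55 for ARRDC3, an alpha-arrestin, 0.53 and 0.59 for MFAP2, a microfibril protein, and 0.48 and 0.67 for NREP. The difference of NREP was called for shRNA 1 against scramble, at -0.60 (adjusted p = 0.045).

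Among equal effects downward, TCF7L1, a repressor in the Wnt pathway, had 4.08 and 4.13 CPM in p53 knockout, against 5.84 and 6.55 CPM in the knockout control. It had 2.97 and 4.39 CPM with shRNA 1 and 5.24 and 5.31 CPM with shRNA 2, against 6.39 and 5.39 CPM with scramble and 7.62 and 7.30 CPM with vector. Every knockout and every hairpin library lay below every control of its arm, and the difference was 0.006 (95% interval -0.49 to 0.51). Over the 4 pairings the TCF7L1 difference ran from -0.43 to 0.45. P2RX4, an ATP-gated ion channel, had a knockout effect of -0.41 and a knockdown effect of -0.48, and its difference stayed between -0.06 and 0.19 over the 4 pairings. The others named were PLA2G16, a phospholipase, LIMS2, a focal adhesion adaptor, FAM132B, a secreted hormone also called erythroferrone, and KIF7, a kinesin of Hedgehog signalling, with differences from -0.10 to 0.20. The equality of FAM132B, like that of BMF, did not hold for each pairing. Its difference was -0.75 for shRNA 1 against scramble (adjusted p = 0.094) and 0.92 for shRNA 2 against vector, where it was called (adjusted p = 0.019).

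Of the 1582 genes called for knockdown, 193 had a called difference, 490 had a difference whose interval lay within 1.5-fold and 899 had neither. For those 899 genes these libraries did not tell equal from unequal effects. The knockout effect had the sign of the knockdown effect in 906 of the 1582 genes (57.3%), against 55.5% of all tested genes. The part of the wider spread of the knockout-arm libraries in these shares was not tested.

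**Figure D5:**
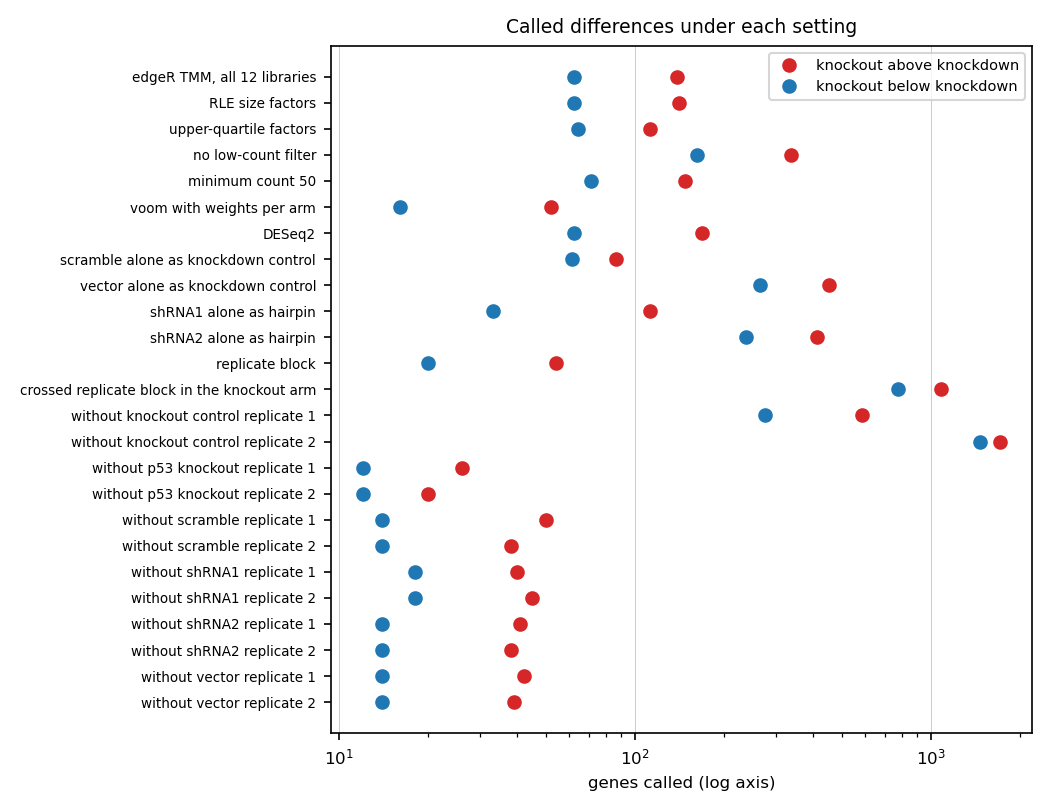
Number of genes with a called difference (horizontal log axis) under each setting, red for a knockout effect above and blue for one below the knockdown effect. Over the settings without 1 library the counts run from 32 to 3175 genes, with the 2 highest counts in the fits without a knockout control library.

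Leaving out a knockout control library raised the count of called genes, and leaving out any other library lowered it. Without knockout control 1 the difference was called for 863 genes and without knockout control 2 for 3175, against 38 and 32 without a p53 knockout library and 52 to 64 without any 1 library of the knockdown arm. All 201 genes kept the sign of their difference in the 12 fits. Called in each of the 12 fits were 24 genes, 15 positive and 9 negative, among them ITM2A, PDGFD, CELF2, IL13RA2, GFRA1, IGFBP3, MTHFD2, MMP1, IL1B, MIR22HG, DCN, TNFRSF10D, SOD2 and TXNIP. With voom and quality weights in each arm 68 genes were called, 66 of which were among the 201 with the same sign. Of the 24 genes with the highest and lowest differences named, that test called 4 with a positive difference (PDGFD, CELF2, IL13RA2 and IGFBP3) and 4 with a negative one (MMP3, BMPER, MIR22HG and TNFRSF10D).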

How the data were processed

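The deposited values are raw counts of reads for each gene symbol in the 12 libraries, in 1 table by the authors. The submitters' processing notes name bcl2fastq, STAR 2.5 and hg19; how reads were counted, with which annotation and with or without strand, is not given in the sources used here, so reads of overlapping genes on opposite strands cannot be told apart. Per the labels, an mRNA kit was used on purified total RNA.

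Analysis used R 4.3.3, edgeR 4.0.16, limma 3.58.1 and DESeq2 1.42.0. Genes passed filterByExpr with a minimum count of 10, library sizes were scaled by TMM, and 6 groups were fitted together (6 residual degrees of freedom) with the two-sided quasi-likelihood F test. SE and 95% intervals are Wald values from that fit, which pools the spread of each gene over the groups. Benjamini-Hochberg adjustment of p was over 13365 genes. For 49 genes with a group at 0 no interval was computed. The depth given with the results limits low genes most, and genes at a few CPM have the widest intervals.

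The genes named were the 12 highest and 12 lowest called differences that reached 5 CPM in a group and kept their sign in all 4 pairings of hairpin and control and in every fit without 1 library. Also named were ITM2A and MARCKS, up to 6 equal genes in each direction, up to 4 genes with the smallest p from each of 15 lists and the 3 genes most like ITM2A and MARCKS. Clone, antisense and open reading frame names were left out. A few genes picked in this way are not reported here, though all counts include them. The genes and the 25 lists (579 of 580 entries matched, 1 through an older symbol) were chosen with earlier results of these data known. Same-numbered libraries deviated together with correlations from -0.47 to 0.16 over 15 pairs of groups, so the numbers were not taken as pairs. Alternatives covered scaling, filters, test, threshold, control, hairpin, a replicate block and leaving out each library. The code was tested on simulated counts with the same spread in all groups and the same base level in both arms. That test cannot show how the calls fare with the unequal spread of the arms.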

Additional observations from a re-analysis of the deposited data

Results flagged for a closer look

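The knockout and knockdown effects differed by the interaction test for 201 genes, and the hairpins differed from each other for 1909 genes. The causes were not tested.

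Genes called with 1 sign in all 4 pairings of a hairpin with a control are listed by that interaction test. The pairings share the knockout-arm libraries and are not independent checks. The differences were 2.06 for ITM2A, 1.66 for PDGFD, 1.45 for CELF2, 1.44 for IL13RA2, 1.197 for NOV, 1.19 for carboxypeptidase M (CPM), 1.13 for ELMO1, 0.63 for SIAH2, 0.62 for GPR176 and 0.54 for HSP90B1. Negative differences were -0.58 for KLF10, -0.74 for TXNIP, -0.75 for C14orf132 and -1.16 for MIR22HG.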

How the results depend on the processing

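Counts are of genes called for the knockout effect minus knockdown effect (the difference), the knockout effect, the knockdown effect and of genes with equal effects, 201, 2, 1582 and 129 in the reported analysis. Other size factors, a minimum count of 50 and shRNA 1 alone kept all 4 counts within 1.5 times. Without the low-count filter the difference, knockout and equal counts were 498, 64 and 454. By voom they were 68, 1, 4357 (knockdown) and 32 (equal), and DESeq2 called 23 for knockout. With scramble alone, knockdown was 905 and equal 70; with vector alone, the difference was 715, knockdown 2464 and equal 238. With shRNA 2 alone the difference was 650. An adjusted p below 0.01 gave 42, 1 and 670, and a 2-fold minimum 38, 1 and 62. A narrower interval limit gave 16 equal genes and one of 2-fold 284.

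With the replicate block the knockout effect minus knockdown effect was called for 74 genes, the knockout effect for 1, and genes with equal effects were 69. A block with crossed numbers in the knockout arm, chosen after seeing a correlation of -0.47 between the deviations of same-numbered knockout and control libraries, gave 1851, 624, 3947 and 1991. Leaving out 1 library gave 32 to 3175 for the difference, 1 to 4135 for knockout, 743 to 3395 for the knockdown effect and 26 to 2115 for equal effects; the remaining library of that pair is assumed to vary like the other groups.

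Positive calls were 69.2% of the total, 58.5% with scramble alone, 58.3% with the crossed block and 54.0% without knockout control 2. Scaling moved the median of all genes by at most 0.03. Among the genes named in the text, reversed with vector alone were BNIP3L (0.14) and P4HA1 (0.49), with scramble alone IL1B (0.003), SOD2 (0.092), TNFAIP3 (0.078), IL1A (0.94) and DCN (0.30), and with shRNA 1 alone IL1A (0.058). Where no construction shows it, the cause was not tested. Depth limits genes such as ITM2A, at 11 to 33 reads in the knockout arm.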
